A study of Mus musculus with 6 samples.

Results

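The genes described here were those whose level was lowest in reserve cells, the cells of a differentiated C2C12 culture that stay mononucleated, among genes clearly present in both myotubes and myoblasts. Estimated counts were summed to genes and scaled to the library total, which gives CPM, a level corrected for sequencing depth. A gene was kept where all 4 myotube and myoblast libraries held at least 10 CPM and the higher of the 2 reserve cell values was at most 0.6 times the lowest of those 4. The rule found 21 genes among 8154 that met the 10 CPM limit, or 0.258% of them, and among 25308 rows with any count. Of the 21, 20 were paired with a protein-coding GENCODE gene and 1 was a single transcript, ENSMUST00000239073.1, that the annotation used here pairs with no gene. The members were chosen by their CPM in all 6 libraries, so their difference from myotubes and myoblasts is described below without a test.

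C2C12 is a mouse myoblast line that fuses into multinucleated myotubes when serum is withdrawn. The 3 groups were reserve cells and myotubes, both labelled Day 7 of differentiation in medium with horse serum (the study's methods give a shorter time), and myoblasts labelled Day 0 and grown with fetal bovine serum, with 2 libraries in each group. Myotubes were lifted from the culture by mild trypsinization, which leaves the reserve cells behind, so that a library labelled with one of these cell types could hold some of the other. The submitters describe the libraries of a group as biological replicates, their labels name no transgene or drug, and all cells belong to this 1 line.

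Reserve cells leave the cell cycle without fusing and can return to growth, and they are used as a culture model of the quiescent satellite cell. Myoblasts committed to fusion switch on Myog and sarcomeric genes, whereas reserve cells keep Pax7 and Notch pathway genes.

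Library totals ran between 15658875 and 20055078 estimated counts. The labels were checked against marker genes. The 22 sarcomere genes on the marker list summed to 15828 to 16410 CPM in reserve cells, 56103 to 57760 CPM in myotubes and 423 to 441 CPM in myoblasts, so the reserve cell libraries held muscle transcripts well above the myoblast level. Pax7 averaged 65.4 CPM in reserve cells, 8.92 CPM in myotubes and 76.5 CPM in myoblasts. The 15 satellite cell and quiescence markers summed to 1388 to 1422 CPM in reserve cells, 583 to 592 CPM in myotubes and 1630 to 1652 CPM in myoblasts. Of 13 of these that could be tested, 4 were higher and 6 lower in reserve cells than in myoblasts. Over all tested genes, 24.3% were higher and 21.8% lower. The 17 matrix and fibroblast genes summed to 26652 to 26948 CPM in reserve cells, 4949 to 5062 CPM in myotubes and 14590 to 14671 CPM in myoblasts. In bulk RNA of this kind, fewer cells of a type and less RNA per cell cannot be told apart, and how much the mixture of cells contributed to the levels below was not tested.

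Being lowest in reserve cells was uncommon in these libraries. Over the 8154 genes, the ratio of the higher reserve cell value to the lowest of the other 4 had a median of 1.38, and it was below 1 for 919 of them (11.3%). The same rule with myotubes as the low group found 1667 of 8978 genes, and with myoblasts as the low group 588 of 8415. These counts depend on scaling to library totals. On that scale the median log2 difference of all tested genes was 0.21 for reserve cells over myotubes and -0.06 for reserve cells over myoblasts. For myotubes over myoblasts it was -0.27. The counts for the other low groups were not repeated under another scaling. The 21 genes had ratios between 0.206 for Krt19 and 0.6 for Rras2, with a median of 0.506. In 14 of them the reserve cell mean was at least 2-fold below both other means, and in 8 at least 3-fold.

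**Figure D1:**
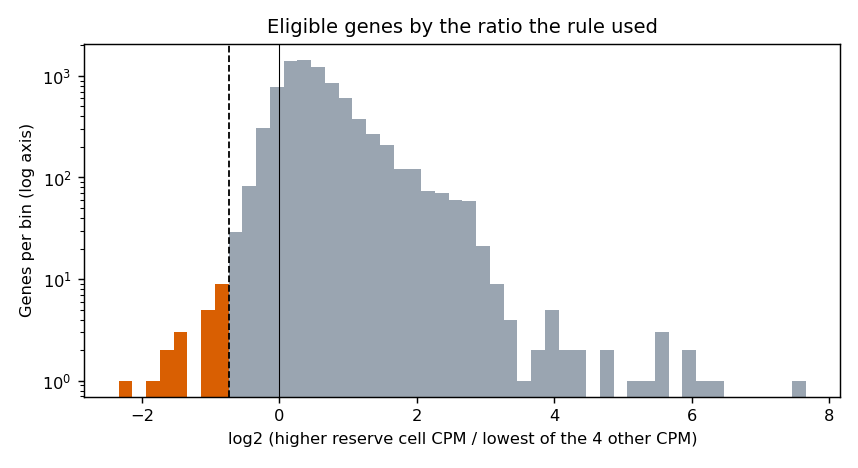
The horizontal axis gives the log2 ratio of the higher reserve cell CPM to the lowest CPM of the 4 myotube and myoblast libraries, and the vertical axis, which is logarithmic, the number of the 8154 eligible genes per bin. The dashed line marks a ratio of 0.6, and the 21 genes to its left are drawn in orange.

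The genes were of modest abundance. Their mean over the 4 myotube and myoblast libraries had a median of 23.8 CPM and a range of 12.2 to 164 CPM, against a median of 56.7 CPM for all eligible genes. In the reserve cell libraries they held between 59 and 1621 estimated counts. The 2 reserve cell libraries differed by a median of 1.21-fold over the 21 genes and by 1.06-fold over the eligible genes, and 8 of the 21 lay above the eligible genes' 95th percentile of 1.23-fold. Differences of more than 2-fold between these 2 libraries were seen for 3 of the 21, namely Nnt, Tnik and ENSMUST00000239073.1, against 0.245% of the eligible genes.

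**Figure D2:**
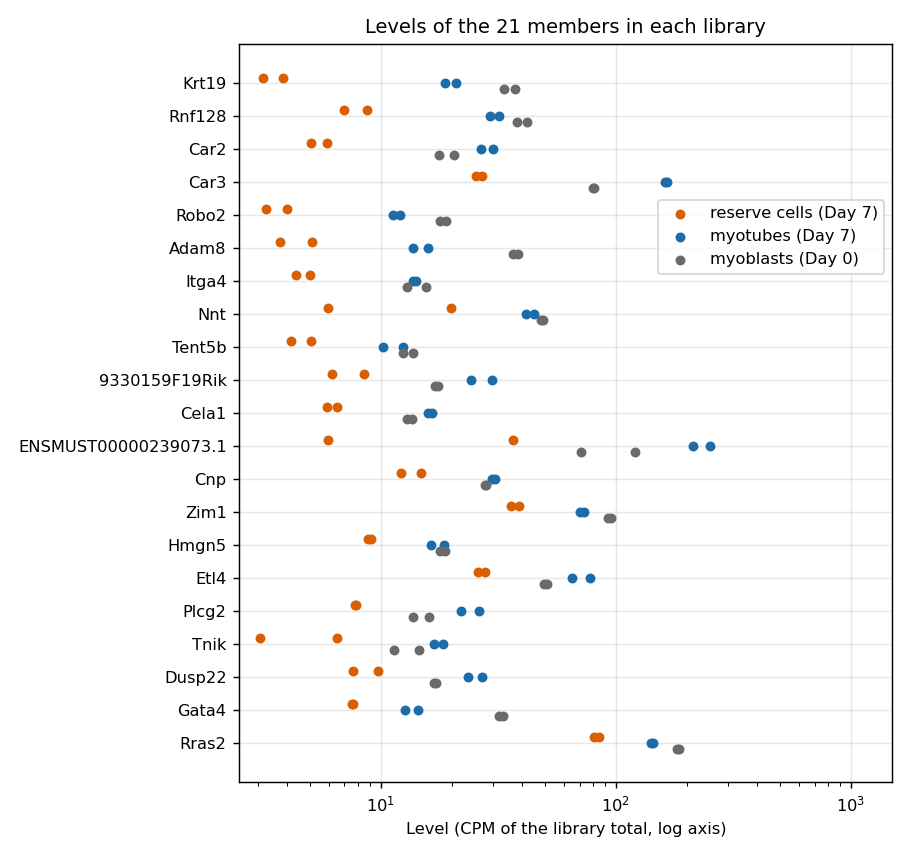
Each point is 1 library, and the logarithmic horizontal axis gives its level in CPM for each of the 21 genes, ordered from the lowest ratio at the top to the highest at the bottom. Reserve cell points lie to the left of all others in every row, as the rule requires, while myotube and myoblast points change places from gene to gene.

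Krt19 had the lowest ratio. It encodes keratin 19, a type I intermediate filament protein of simple epithelia that in mouse muscle also lies at costameres, the links between Z-discs and the cell membrane. Krt19 (ENSMUSG00000020911.14, chromosome 11, 100140810 to 100148665, GRCm38) had 3.85 and 3.14 CPM in the reserve cell libraries, against 20.9 and 18.7 CPM in myotubes and 33.3 and 37.1 CPM in myoblasts. Its reserve cell mean of 3.50 ± 0.499 CPM (SD, n = 2) was 5.66-fold below that of myotubes and 10.1-fold below that of myoblasts. All counts of Krt19 were assigned to the same transcript in all 6 libraries. Of 4 other listed keratins that could be tested, 2 were higher in reserve cells than in myoblasts (Krt80 and Krt10), where 24.3% of 15467 tested genes were, and none was lower, where 21.8% were. Krt80, a type II keratin, averaged 139 CPM in reserve cells, 101 CPM in myotubes and 89.1 CPM in myoblasts. Krt13 was the nearest gene on one side of Krt19 above the expression limit used for neighbours (given below). It had the same order of means but lay under the 10 CPM limit in myotubes. Its means were 0.550 CPM in reserve cells, 2.12 CPM in myotubes and 14.3 CPM in myoblasts.

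A second set of members encodes proteins of the cell surface. Itga4 is the alpha4 integrin chain, which pairs with beta1 or beta7 and binds VCAM1 and fibronectin, a contact known from muscle development. It had 4.37 and 5.01 CPM in reserve cells, against 13.7 and 14.1 CPM in myotubes and 12.9 and 15.6 CPM in myoblasts. Myotube and myoblast values of Itga4 overlapped and the reserve cell values lay about 3-fold below both, by 2.96-fold and 3.03-fold for the means. Robo2, a receptor for the SLIT guidance proteins, had 4.01 and 3.25 CPM in reserve cells, against 12.01 and 11.3 CPM in myotubes and 19.0 and 17.9 CPM in myoblasts. Adam8 is a membrane-anchored metalloprotease best known from leukocytes, and had 5.10 and 3.73 CPM in reserve cells, against 13.7 and 15.8 CPM in myotubes and 38.4 and 36.5 CPM in myoblasts. Rnf128, a transmembrane ubiquitin ligase also called GRAIL that was described in unresponsive T cells, had 6.97 and 8.74 CPM in reserve cells, against 31.9 and 29.2 CPM in myotubes and 37.8 and 41.8 CPM in myoblasts. For Robo2, Adam8 and Rnf128 the groups did not overlap and myoblasts held the highest values. Macrophage markers are given beside the genes known from leukocytes, and a contribution of such cells was not tested. Ptprc and Adgre1 had no counts in any library, and the 8 macrophage markers summed to 7.84 to 8.07 CPM in reserve cells, 4.24 to 4.53 CPM in myotubes and 13.0 to 13.8 CPM in myoblasts.

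Partners, ligands and relatives of these surface proteins differed in their order. Itgb1, the beta1 chain, was at 1220 CPM in reserve cells, 1240 CPM in myotubes and 1090 CPM in myoblasts. Vcam1, a ligand of the alpha4 integrins, averaged 61.3 CPM in reserve cells, 9.07 CPM in myotubes and 158 CPM in myoblasts. Slit2, a ligand of Robo2, was higher in reserve cells than in both, with 199 CPM against 28.2 CPM in myotubes and 57.7 CPM in myoblasts (log2 difference 2.61, edgeR adjusted p = 8.1e-08 and 1.85, adjusted p = 4.7e-07). Robo1, the related receptor, averaged 27.4 CPM in reserve cells, 8.80 CPM in myotubes and 85.5 CPM in myoblasts, so that it was lowest in myotubes and not in reserve cells. Among 8 other ADAM proteases tested, none was lower in reserve cells than in both other groups, where 4.25% of all tested genes were. Of 4 other ligases of the Rnf128 type, 4 were higher in reserve cells than in myoblasts, where 24.3% of all tested genes were. Rnf150, 1 of these 4, averaged 143 CPM in reserve cells, 20.3 CPM in myotubes and 65.6 CPM in myoblasts. Srgap3, which acts downstream of ROBO receptors, and Itga6, the alpha6 integrin chain, had the members' direction. Srgap3 averaged 55.0 CPM in reserve cells, 89.6 CPM in myotubes and 71.8 CPM in myoblasts, and was lower in reserve cells than in myotubes (log2 difference -0.91, adjusted p = 7.4e-05) and than in myoblasts (-0.31, adjusted p = 0.029). Itga6 was lower in reserve cells than in both, at 55.4 CPM against 82.6 CPM in myotubes and 103 CPM in myoblasts, with a ratio of 0.729 that lies outside the rule.

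The promoters of 4 members held CAGCTG, the E-box sequence that MyoD-family factors favour, and are printed because all 4 genes share this feature, which the rule did not use. The lines give the 250 bases before a RefSeq start of each gene (GRCm38.p6), 5′ to 3′ on the gene's strand, with CAGCTG in capitals.
Itga4, chr2:79255176-79255425, + strand: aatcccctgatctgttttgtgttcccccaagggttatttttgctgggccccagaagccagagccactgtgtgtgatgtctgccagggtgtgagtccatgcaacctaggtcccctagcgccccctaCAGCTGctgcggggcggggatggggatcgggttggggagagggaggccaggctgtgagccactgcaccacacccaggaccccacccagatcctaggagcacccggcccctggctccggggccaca
Robo2, chr16:74411826-74412075, - strand: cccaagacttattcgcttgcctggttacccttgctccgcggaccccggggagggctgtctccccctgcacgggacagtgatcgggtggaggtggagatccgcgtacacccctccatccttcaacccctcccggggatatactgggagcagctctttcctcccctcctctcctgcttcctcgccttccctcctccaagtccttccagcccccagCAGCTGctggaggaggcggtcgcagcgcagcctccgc
Tent5b, chr4:133479883-133480132, + strand: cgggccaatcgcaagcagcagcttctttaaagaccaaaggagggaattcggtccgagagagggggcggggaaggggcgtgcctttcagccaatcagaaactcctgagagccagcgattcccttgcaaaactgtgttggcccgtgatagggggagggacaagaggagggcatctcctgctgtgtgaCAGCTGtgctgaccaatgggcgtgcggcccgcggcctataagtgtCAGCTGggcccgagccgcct
Cela1, chr15:100687921-100688170, - strand: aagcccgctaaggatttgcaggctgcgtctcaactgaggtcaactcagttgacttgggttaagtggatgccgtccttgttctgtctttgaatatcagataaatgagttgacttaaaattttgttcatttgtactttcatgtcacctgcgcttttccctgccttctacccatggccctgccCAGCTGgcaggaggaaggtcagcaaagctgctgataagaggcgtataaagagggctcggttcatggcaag
Tent5b held 2 copies and the other printed windows 1. Robo2 had further RefSeq starts, and CAGCTG was not found in their windows. CAGCTG reads the same on both strands and overlaps no other motif searched. It was found in 4 of 18 RefSeq windows of 14 members (22.2%), in 11.5% of 8247 windows of eligible genes and in 13.0% of all 32851 windows. With 4 matches these shares give a description only, and a match is not a bound site. Of the other motifs, CACGTG was in 16.7% of the members' windows and 8.89% of eligible ones, TATAAA in 16.7% and 6.05%, CCAAT in 22.2% and 34.7%, GGGCGG in 50.0% and 62.5%, and GGAATG in 11.1% and 10.03%, each searched on both strands. CCGGAAG was in none of the 18 windows and 15.2% of eligible ones, and TGAGTCA in none and 2.93%. The median GC content was 57.6% for the members' windows and 61.2% for those of eligible genes.

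Of the other 2 genes with a printed promoter, Tent5b encodes a noncanonical poly(A) polymerase. It had 4.16 and 5.06 CPM in reserve cells, against 12.5 and 10.2 CPM in myotubes and 13.7 and 12.4 CPM in myoblasts. Its relatives Tent5a and Tent5c averaged 8.22 and 3.86 CPM in reserve cells, 3.77 and 3.91 CPM in myotubes, and 5.85 and 2.82 CPM in myoblasts, and neither passed the test as lower in reserve cells. Cela1, a chymotrypsin-like elastase, had 6.51 and 5.92 CPM in reserve cells, against 15.8 and 16.5 CPM in myotubes and 13.6 and 12.9 CPM in myoblasts. The reserve cell values of both genes lay less than 3-fold below the other means, and for Tent5b the myotube and myoblast values overlapped.

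A pair of neighbouring carbonic anhydrase genes was among the members. Carbonic anhydrases convert carbon dioxide and water to bicarbonate and a proton. Car2 is the fast cytosolic form, and Car3 a slow form abundant in slow skeletal muscle and fat. Car3 (ENSMUSG00000027559.5) lies on chromosome 3 from 14863512 to 14872523 and Car2 (ENSMUSG00000027562.12) from 14886273 to 14900770 on the same strand, 13750 bases apart. Car3 had 27.0 and 25.4 CPM in reserve cells, against 162 and 164 CPM in myotubes and 80.1 and 80.3 CPM in myoblasts. Car2 had 5.88 and 5.06 CPM in reserve cells, against 26.8 and 30.1 CPM in myotubes and 17.6 and 20.5 CPM in myoblasts. Both genes had the order reserve cells, myoblasts, myotubes from low to high, with no overlap between groups. Car13 lies 200510 bases upstream of Car3 and was the nearest gene there above the expression limit used for neighbours. It did not have this order, with means of 51.6 CPM in reserve cells, 45.1 CPM in myotubes and 189 CPM in myoblasts. Of 10 other carbonic anhydrases tested, none was lower in reserve cells than in both other groups, where 4.25% of all tested genes were. For 10 genes, finding none is near that share. Car9, a membrane form known to respond to hypoxia, was higher in reserve cells than in both. It averaged 25.8 CPM in reserve cells, against 7.33 CPM in myotubes and 1.26 CPM in myoblasts (edgeR adjusted p = 0.00013 and 1.3e-06). Per kilobase of transcript, Car3 and Rras2 were the most abundant members in the myotube and myoblast libraries, at 72.6 and 71.6 CPM per kilobase, and Itga4 the least abundant at 1.45.

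The remaining enzymes were Cnp and Nnt. Cnp, a cyclic nucleotide phosphodiesterase known from myelin, had 12.2 and 14.8 CPM in reserve cells, against 30.7 and 29.8 CPM in myotubes and 27.9 and 27.9 CPM in myoblasts. Its exons share 154 bases with Dnajc7 on the opposite strand, which averaged 50.2 CPM in reserve cells, 153 CPM in myotubes and 11.3 CPM in myoblasts, and whether strand entered the counting is not stated in the sources read. Whether neural cells contributed to the Cnp level was not tested. The 8 neural markers summed to 33.8 to 36.4 CPM in reserve cells, 17.8 to 19.4 CPM in myotubes and 183 to 190 CPM in myoblasts. Most of this sum was Tubb3, whereas Sox10 and Olig2 had no counts in any library.

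Nnt is a member by 1 of its 2 annotated gene models only. It encodes the mitochondrial transhydrogenase that makes NADPH at the inner membrane. The member model (ENSMUSG00000025453.18) had 19.9 and 5.97 CPM in reserve cells, against 44.8 and 41.3 CPM in myotubes and 48.1 and 48.7 CPM in myoblasts. A second model (ENSMUSG00000116207.1) shares 3339 of the member model's 7037 exonic bases on the same strand and had 51.6 and 66.3 CPM in reserve cells, against 29.5 and 32.7 CPM in myotubes and 38.4 and 35.2 CPM in myoblasts. The models moved in opposite directions, and the reserve cell library that was lower in the first was higher in the second. Their sum was 71.9 ± 0.510 CPM in reserve cells, 74.1 ± 0.247 CPM in myotubes and 85.2 ± 1.86 CPM in myoblasts (SD, n = 2 each). On the sum the ratio was 0.977, so the 2 models together did not meet the rule, and the low reserve cell value was that of the member model alone.

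**Figure D3:**
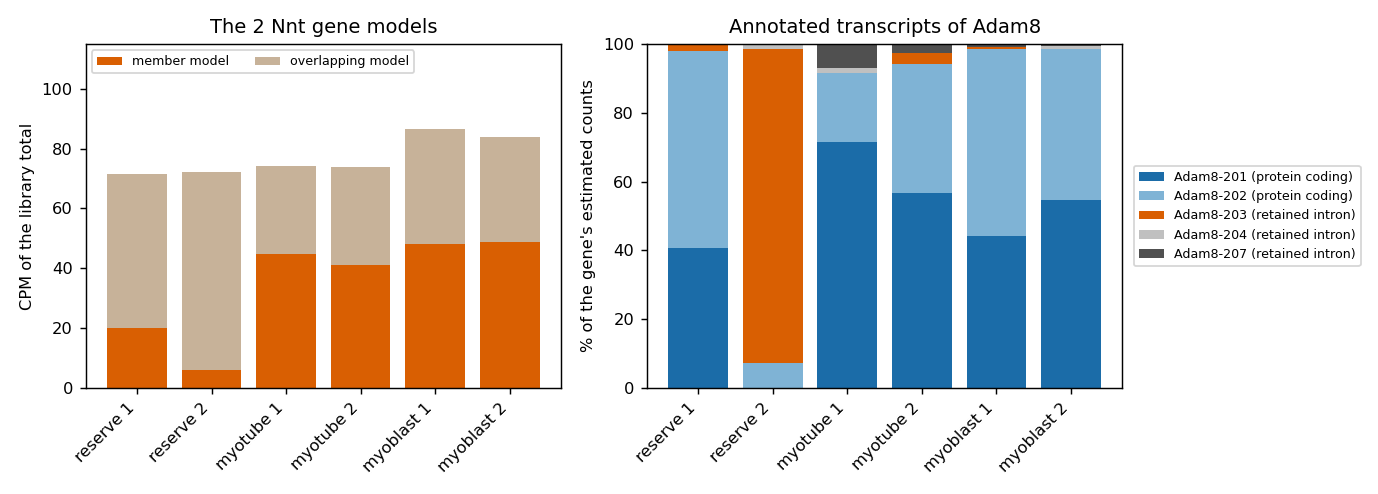
Left, stacked bars give the CPM of the member model and the overlapping model of Nnt in each library. The orange part is small in both reserve cell libraries while the whole bars stand between 71.5 and 86.5 CPM in all 6. Right, stacked bars give the percentage of Adam8 estimated counts assigned to each annotated transcript, and in reserve cell replicate 2 most of them stand on the retained-intron transcript Adam8-203.

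Several members act in signalling from the cell surface. Plcg2, which cleaves the membrane lipid PIP2 downstream of immune receptors, had 7.81 and 7.78 CPM in reserve cells, against 21.9 and 26.1 CPM in myotubes and 16.0 and 13.8 CPM in myoblasts. Its relative Plcg1 averaged 129 CPM in reserve cells, 95.5 CPM in myotubes and 135 CPM in myoblasts, and passed the test in neither comparison of reserve cells. Dusp22, a dual-specificity phosphatase that acts on the JNK pathway, had 9.73 and 7.62 CPM in reserve cells, against 27.0 and 23.5 CPM in myotubes and 17.2 and 16.8 CPM in myoblasts. In Plcg2 and Dusp22 myotubes held the highest values and the groups did not overlap. Tnik, a kinase of the germinal center kinase family that takes part in Wnt signalling, had 3.07 and 6.50 CPM in reserve cells, against 18.4 and 16.9 CPM in myotubes and 11.4 and 14.5 CPM in myoblasts. Tnik rested on 59 and 122 counts in the reserve cell libraries, which differed 2.12-fold. Its close relatives Map4k4 and Mink1 were not lowest in reserve cells, with means of 605 and 102 CPM in reserve cells, 511 and 100 CPM in myotubes, and 534 and 180 CPM in myoblasts. Of 9 other JNK pathway phosphatases and kinases tested, 2 were lower in reserve cells than in both, namely Dusp10 and Map2k4, both with ratios above 0.8, where 4.25% of all tested genes were lower than both.

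Rras2, a small GTPase of the R-Ras group also called TC21, lay nearest to the limit of the rule. It had 84.4 and 80.6 CPM in reserve cells, against 141 and 144 CPM in myotubes and 186 and 181 CPM in myoblasts.

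Nuclear proteins made up 3 of the members. Gata4 is a zinc finger transcription factor of heart and endoderm. It had 7.60 and 7.52 CPM in reserve cells, against 14.4 and 12.7 CPM in myotubes and 33.2 and 31.7 CPM in myoblasts. Its paralogs Gata2 and Gata3 were lowest in myotubes, with means of 18.05 and 9.59 CPM in reserve cells, 3.59 and 3.20 CPM in myotubes, and 31.1 and 9.77 CPM in myoblasts. On the same list Zfpm2 was also lowest in myotubes. Zfpm1 was called lower in reserve cells than in both, at 28.9 CPM against 31.9 CPM in myotubes and 37.6 CPM in myoblasts. Its reserve cell values of 27.3 and 30.4 CPM overlapped the 34.2 and 29.6 CPM of myotubes, with a ratio of 1.03. The call against myotubes (log2 difference -0.35, edgeR adjusted p = 0.016) came from the fit, which uses scaling factors beyond the library total. Hmgn5, an X-linked nucleosome-binding protein, had 9.11 and 8.80 CPM in reserve cells, against 16.4 and 18.6 CPM in myotubes and 18.7 and 17.9 CPM in myoblasts. Myotube and myoblast values of Hmgn5 overlapped. Among its 3 relatives, Hmgn2 was lower in reserve cells than in both and Hmgn1 and Hmgn3 were lowest in myotubes.

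Zim1 is an imprinted zinc finger gene expressed from the maternal allele, and its neighbour Peg3, an imprinted gene expressed from the paternal allele, had a like order. Zim1 had 38.8 and 35.7 CPM in reserve cells, against 70.4 and 72.9 CPM in myotubes and 92.8 and 95.5 CPM in myoblasts. Peg3, 7442 bases away on the same strand, averaged 301 CPM in reserve cells, 502 CPM in myotubes and 694 CPM in myoblasts. The Peg3 ratio of 0.654 missed the rule, and Peg3 was lower in reserve cells than in myoblasts (log2 difference -1.13, adjusted p = 1.9e-06) and than in myotubes (-0.94, adjusted p = 4e-06). Usp29, another gene of the same imprinted domain, averaged 2.55 CPM in reserve cells, 3.11 CPM in myotubes and 9.03 CPM in myoblasts, and was called lower only against myoblasts. The nearest genes above the expression limit used for neighbours included 38 distinct ones that were not members themselves. Of these, 22 were eligible, and 3 of the 22 (13.6%) had a ratio below 1, near the 11.3% of all eligible genes.

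The last 3 members have less well-known roles. Etl4, also called Skt, is needed for intervertebral disc development in mice and had 25.97 and 27.7 CPM in reserve cells, against 64.8 and 77.7 CPM in myotubes and 51.1 and 49.2 CPM in myoblasts. 9330159F19Rik had 8.48 and 6.18 CPM in reserve cells, against 24.1 and 29.6 CPM in myotubes and 17.0 and 17.5 CPM in myoblasts. In both genes myotubes were highest, with no overlap between groups. ENSMUST00000239073.1 had 36.6 and 5.97 CPM in reserve cells, against 213 and 252 CPM in myotubes and 120 and 70.8 CPM in myoblasts. With no gene to pair it to, this transcript may be only one of several of its gene, and its 2 reserve cell libraries differed 6.13-fold.

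The rule did not compare myotubes with myoblasts, but it used the values of both groups, through its CPM limit and the lowest of these values. This limits how far either group could fall in a member, so the split of the members is given as a description. In the edgeR quasi-likelihood fit over 15467 genes, 9 of the 21 were higher in myotubes, 3 were lower and 9 did not pass an adjusted p of 0.05. Over all tested genes 32.6% were higher, 32.7% lower and 65.3% called either way, and over the eligible genes 40.2% were higher and 35.6% lower. The members' shares of 9 and 3 in 21 were near these for higher calls and below them for lower calls. Neither set of genes had to meet the ratio limit, so whether the smaller share of lower calls came from the selection cannot be told. The members' median log2 fold change was 0.24, against 0.00 over all tested genes. On CPM, 18 of the 21 had myotube and myoblast values that did not overlap, and so did 83.1% of all tested genes.

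The members higher in myotubes were the carbonic anhydrases, Plcg2, Dusp22, Etl4, 9330159F19Rik, Cela1, Cnp and ENSMUST00000239073.1. Car3 differed by 1.30 ± 0.07 (SE) on the log2 scale (adjusted p = 4.5e-07) and Car2 by 0.85 ± 0.14 (adjusted p = 0.00084). Plcg2 followed with 0.97 ± 0.15 (adjusted p = 0.0005), 9330159F19Rik with 0.92 ± 0.17 (adjusted p = 0.0018), Dusp22 with 0.85 ± 0.15 (adjusted p = 0.0011) and Etl4 with 0.79 ± 0.10 (adjusted p = 0.00014). The other calls were smaller or less certain: Cela1 differed by 0.57 ± 0.15 (adjusted p = 0.0088), Cnp by 0.40 ± 0.12 (adjusted p = 0.016) and ENSMUST00000239073.1 by 1.57 ± 0.56 (adjusted p = 0.036). Cnp lost its call without any 1 of the 4 myotube and myoblast libraries (adjusted p = 0.054 to 0.081), ENSMUST00000239073.1 likewise (0.054 to 0.19), and Cela1 without myoblast replicate 2 (0.052).

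The members lower in myotubes were Adam8, Gata4 and Krt19. Adam8 fell by 1.06 ± 0.16 (adjusted p = 0.00041), Gata4 by 0.98 ± 0.13 (adjusted p = 0.00016) and Krt19 by 0.55 ± 0.13 (adjusted p = 0.0064), the last of which lost its call without myoblast replicate 2 (adjusted p = 0.052). These 3 genes had their levels in the order reserve cells, myotubes, myoblasts from low to high.

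For the 9 members not called, the intervals of the difference were of unequal width. The 95% interval for Rras2 ran from -0.21 to 0.04 on the log2 scale, for Zim1 from -0.29 to 0.05 and for Itga4 from -0.15 to 0.63. That of Nnt ran from -0.74 to 0.95, with an adjusted p of 0.82. The spread is estimated over all 3 groups, and for Nnt the reserve cell libraries differed 3.34-fold. With only the 4 myotube and myoblast libraries, the Nnt difference was 0.12 with an adjusted p of 0.2. Tnik (0.72, adjusted p = 0.06) and Robo2 (-0.38, adjusted p = 0.067) did not pass the threshold. Tnik passed it in 6 of 14 alternatives, among them the fit to the 4 myotube and myoblast libraries alone (adjusted p = 0.0065) and those without reserve cell replicate 1 or 2 (0.0094 and 0.01), the 2 libraries that differed 2.12-fold.

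The split between higher and lower members depended on the scaling. With library totals in place of trimmed mean of M values (TMM) factors, the median of all tested genes moved by -0.28 and the members divided into 6 higher and 7 lower, with 46.2% of calls higher in place of 75%. The 6 still higher were Car3, Car2, Plcg2, 9330159F19Rik, Dusp22 and Etl4, and Rras2, Zim1, Rnf128 and Robo2 joined the lower ones. Mitochondrially encoded genes took 5.30% and 5.37% of myotube counts, against 1.89% and 1.90% of myoblast counts. Without them the TMM fit again called 9 higher and 3 lower.

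**Figure D4:**
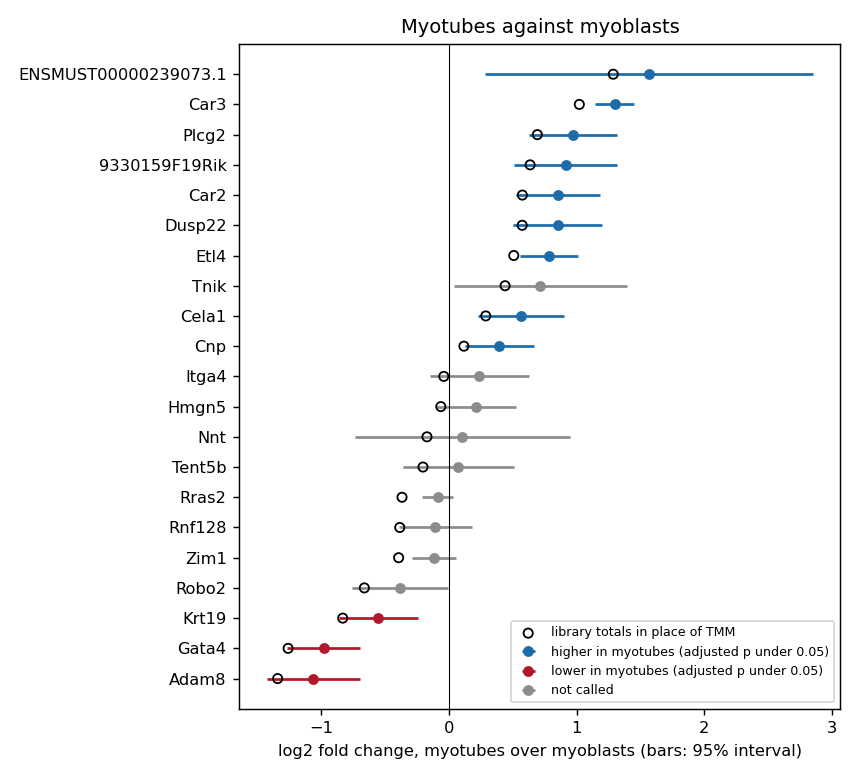
Filled points give the fitted log2 fold change of myotubes over myoblasts with its 95% interval for each of the 21 genes, coloured by call at an adjusted p of 0.05. Open circles give the fold change with library totals and lie to the left of the filled points in every row, by about 0.28.

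Transcript shares within a gene were not used by the rule. Of the 21, 4 had a single transcript. In 13 of the other 17 the same annotated transcript led in all 6 libraries, and the exceptions were Adam8, Robo2, Tnik and 9330159F19Rik. For Adam8, reserve cell replicate 2 had 64 of its 70 counts on Adam8-203, a transcript with a retained intron, and none on the protein-coding Adam8-201, while replicate 1 had 2 counts on Adam8-203 and 40 on Adam8-201. Robo2-203 took 84.4% and 68.9% of Robo2 counts in reserve cells, 85.1% and 1.38% in myotubes, and 6.33% and 22.6% in myoblasts. The 2 myotube libraries thus stood at opposite ends, so that no group difference in Robo2 transcripts could be read. For 9330159F19Rik, 9330159F19Rik-201 took 58.9% and 90.5% in reserve cells, 70.8% and 69.8% in myotubes, and 33.1% and 32.5% in myoblasts. Gata4-202 led throughout but with shares between 53.4% and 91.5%.

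Structural features are given as a description. The 20 members with a gene had a median transcript length of 2933 bases, against 3197 for eligible protein-coding genes, and 4 annotated transcripts, against 6. Their median number of exons was 7.09 (transcripts weighted by their counts), against 9.76, and their median span on the genome was 38208 bases, against 26199. They were spread over 12 chromosomes, and apart from Car2 and Car3 the nearest pair, Krt19 and Cnp, lay 426239 bases apart.

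Genes lower in reserve cells than in both others were a larger share of listed relatives and pathway genes than of all tested genes. Members were left out of the relatives, and none stood on the other lists. A listed gene that met the 10 CPM limit could therefore not reach the ratio of 0.6. Over 87 tested relatives in 16 families, 33 were lower and 25 higher in reserve cells than in myoblasts, where 21.8% and 24.3% of all tested genes were. Against myotubes, 28 were lower and 35 higher, where 27.2% and 28.4% of all tested genes were. In 9 of them (10.3%) reserve cells were lower than both, as they were for 4.25% of all tested genes, and the lowest ratio was the 0.654 of Peg3. All tested genes include those under the 10 CPM limit, so the 4.25% is not matched to the lists for level. The families were listed once the members were known. None of the members stood on any of 29 other lists of muscle, growth and cell type genes. Of 488 tested genes on these lists, 46 (9.43%, again beside 4.25% of all tested genes) were lower in reserve cells than in both. Among them were 7 of 27 proteasome subunits, 7 of 25 genes of oxidative phosphorylation and 8 of 24 of the mitochondrial ribosome and import. Compared with myoblasts, proteasome subunits split into 4 higher and 7 lower in reserve cells, and oxidative phosphorylation genes into 7 and 8. Against myotubes, 26 and 24 of these were lower, and 0 and 1 higher. For the mitochondrial ribosome and import, 11 were lower than in myoblasts with none higher, and 20 were lower than in myotubes. Atp5b, the beta subunit of ATP synthase, averaged 1177 CPM in reserve cells, 1690 CPM in myotubes and 1661 CPM in myoblasts, with a ratio of 0.725. Sterol and fatty acid synthesis genes had the opposite direction. In reserve cells 23 of 23 were higher than in myoblasts and 22 of 23 higher than in myotubes, where 24.3% and 28.4% of all tested genes were.

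The limit of 0.6 cut through a continuous range. Just inside it lay Tnik (0.571), Dusp22 (0.581), Gata4 (0.598) and Rras2 (0.6), and just outside it Alox5 (0.601), Mpp6 (0.610), Jpt1 (0.614) and Pkp2 (0.617). Alox5, the lipoxygenase that starts leukotriene synthesis, had 84.6 and 89.0 CPM in reserve cells, against 151 and 148 CPM in myotubes and 253 and 255 CPM in myoblasts. The number of genes found rose to 33 with TMM-scaled CPM, of which 19 were among the 21. Without reserve cell replicate 1 the rule found 42 genes and without replicate 2 it found 34. Both sets held all 21. This was fixed in advance, since leaving out a library can never raise a gene's ratio or make it ineligible.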

How the data were processed

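The libraries were paired-end mRNA sequencing of C2C12 cells. The authors mapped fragments to mm10 with HISAT2, filtered them with SAMtools and assembled transcripts with StringTie. Neither the versions, the annotation release nor the strand setting was stated in the sources read. The deposited files hold estimated counts per transcript, unscaled, 1 file for each of 6 libraries. A table of the whole series was not used, since its values repeat the estimated counts at another scale.

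Transcripts were paired with GENCODE M21 (GRCm38) by identifier. Of 142604, 141374 were paired, and the 1230 others (0.375% to 0.872% of counts) were kept as rows of their own. Sums were whole numbers already. Levels are CPM of the library total, with 3 counts equal to between 0.150 and 0.192 CPM. Neighbouring genes were sought among paired genes with a mean of at least 1 CPM over all 6 libraries. p-values measure only the spread between 2 libraries per group. edgeR 4.0.16 in R 4.3.3 (TMM, filterByExpr, glmQLFTest) was fitted to all 6 libraries with 1 term per group, Benjamini-Hochberg adjustment ran over all genes, and the biological coefficient of variation was 12.9%. DESeq2 1.42.0 was an alternative, as were library totals, other filters, other limits of the rule, a replicate block and leaving out each library.

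The members, and the lists, were chosen with earlier results of these data known, and relatives were listed after the members. Every member is named. Further genes are the 4 nearest outside the limit, neighbours, and relatives chosen after their values were seen. Markers were lists for sarcomere, satellite, matrix, adipocyte, bone, macrophage, endothelial and neural genes. Promoter sequences were taken from RefSeq (GRCm38.p6), which held 14 of the members.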

Additional observations from a re-analysis of the deposited data

How the results depend on the processing

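The rule found 33 genes with CPM scaled by TMM factors (19 of the 21 among them, without Tnik and Dusp22) and 33 with DESeq2 size factors (20 of the 21, without Dusp22). A ratio limit of 0.5 left 10 genes and one of 0.7 gave 56, and a minimum of 20 CPM left 8. Leaving out 1 library gave 25 to 42 genes. All 21 were included each time, which was fixed in advance, since leaving out a library cannot remove a member. Group means in place of single libraries, an alternative chosen after seeing the data, gave 42. Rnf128, Car3 and Nnt met the rule in 14 of 14 alternatives, Dusp22 in 10. These alternatives include the leave-outs and the looser limits of 0.7 and 5 CPM, which could not lose a member. Of the myotube calls, library totals gave 7 lower in place of 3, and the calls of Adam8, Gata4, Car2, Car3, 9330159F19Rik, Dusp22, Etl4 and Plcg2 held under every alternative run. Tnik passed the threshold with DESeq2 (adjusted p = 0.035) and ENSMUST00000239073.1 did not (0.15).

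Whether same-numbered libraries shared a culture is not known. Their deviations from the group means correlated at 0.00 between myotubes and myoblasts, 0.04 between reserve cells and myoblasts and -0.03 between reserve cells and myotubes. With 2 libraries per group, values near 0 do not exclude pairing. With a replicate block, 10 members were higher and 3 lower in myotubes, Tnik being the added call (adjusted p = 0.041).

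Members with under 150 reserve cell counts in both libraries, such as Krt19, Tnik and Itga4, carry wide counting error, and groups of 2 were too small to set a library apart as an outlier. Leaving out 1 library gave 6 to 10 members higher in myotubes and 2 to 3 lower. Genes whose models share exons, as for Nnt, are uncertain at the level of 1 model.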

Other observations

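Sums of markers for other cell types are given here, and whether such cells contributed to the members' levels was not tested. The 8 adipocyte markers summed to 53.9 to 62.1 CPM in reserve cells, 13.2 to 17.4 CPM in myotubes and 91.5 to 93.0 CPM in myoblasts, with Adipoq, Plin1, Cidec and Lep at no counts in any library. The 8 endothelial markers summed to at most 2.11 CPM in any library. Bone and cartilage markers summed to 139 to 154 CPM in reserve cells, 70.6 to 75.8 CPM in myotubes and 154 to 158 CPM in myoblasts. Myod1, the transcription factor that sets the myogenic lineage, was itself slightly lower in reserve cells than in both, at 185 CPM against 209 CPM in myotubes (log2 difference -0.39, edgeR adjusted p = 0.001) and 225 CPM in myoblasts (-0.21, adjusted p = 0.028).

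The genes gained by the rule under TMM scaling numbered 14 and included Wnt10b, Prickle1, S1pr1, Gsta4 and Peg3.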
